A study of Homo sapiens with 15 samples.

Results

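Short unmethylated regions outside partially methylated domains (PMDs) were examined in the human colorectal cancer line HCT116. Members were selected on the Baseline libraries alone, as autosomal stretches that were called unmethylated region (UMR) in all 5 Baseline domain lists and PMD in none, that were from 300 bp to under 3500 bp long and that held 10 or more CpGs. This rule kept 12224 of the 30566 UMR pieces shared by the 5 lists, covering 18.5 Mb of the hg38 genome and 1270151 CpGs (4.56% of autosomal CpGs). All cells carried a doxycycline (dox)-inducible short hairpin RNA (shRNA) stably introduced by lentivirus. For UHRF1 there were 3 clones, each grown from a single cell (Cl.3, Cl.6, Cl.9), while for DNMT1 there were bulk populations only, 2 in number (R1, R2), so that shRNA and kind of population cannot be told apart. Each population was sequenced at Baseline (day 14, no dox), Knockdown (day 14, with 10 ng/mL dox throughout) and Recovery (day 28, 14 days with dox and then 14 days without), which gave 15 whole-genome bisulfite sequencing libraries. Expression was not analysed here, so neither the depletion of UHRF1 or DNMT1 nor the cell type could be checked on its markers.

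UMRs are stretches, mostly CpG islands at promoters, in which CpGs stay free of the methyl mark that covers most of the genome. DNMT1 copies methylation onto the new DNA strand after replication, and UHRF1, a ubiquitin ligase that reads hemimethylated CpGs, brings DNMT1 to these sites. DNMT3A and DNMT3B add methylation without a template, and the TET enzymes oxidise it. Transcription factors and the histone marks of active promoters are known to keep methyltransferases away from CpG islands. PMDs are large, mostly late-replicating domains that lose methylation in dividing cancer cells, so regions outside them sit in highly methylated surroundings.

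The sequences of 5 members show what such a region looks like. Each is the 30-base window of the member that holds the most CpGs outside annotated exons, shown for 3 members of high and 1 of low methylation and for a member at a gene of DNA demethylation, with each CpG in capitals (hg38, plus strand). They were picked after their values were seen. Reads were counted at each CpG, so a read that covers several CpGs of a window counts at each of them. The upper limits given treat these counts as independent and are therefore too low.
NCOA7: CGaaccCGggcCGCGgCGgtgagagCGcCG
GADL1: aaaCGgagggaCGaggaCGCGCGCGctcCG
chr18 region: aggCGgCGcCGCGggcCGCGctCGcCGaCG
LAMTOR3: cCGgCGgaagctgCGagggCGCGtcCGgCG
TET3: CGagCGgCGgCGCGCGCGCGgccCGgccCG
The NCOA7 window (chr6:125780263-125780292) lies in a promoter member above 10% in every Knockdown library, yet the window itself was methylated in 0.204% of reads at Baseline and in none of 438 at Knockdown when the 3 clones were summed, which allows a share of up to 0.685%. In the bulk populations 2 of 294 reads were methylated at Knockdown (0.680%). The GADL1 window (chr3:30894744-30894773) lies in a promoter member, and its 7 CpGs were methylated in 30.9%, 17.8% and 26.5% of reads at Baseline, Knockdown and Recovery in the summed clones and in 11.1%, 3.07% and 3.17% in the bulk populations. The chr18 window (chr18:12068460-12068489) lies between genes, and its 9 CpGs were methylated in 15.4%, 16.9% and 22.7% of reads in the clones, against 6.62%, 5.91% and 24.0% in the bulk populations. The LAMTOR3 window (chr4:99894499-99894528) lies in a promoter member, and none of its 178 reads at Knockdown in the bulk populations was methylated, which allows a share of up to 1.69%. In the clones 1 of 211 reads was methylated at Knockdown (0.474%). The TET3 window (chr2:73985404-73985433) holds 10 CpGs in 30 bases in a promoter member, and none of its 150 reads at Knockdown in the clones was methylated, which allows up to 2.00%. CpG-dense windows were thus methylated in some of these members and nearly free of methylation in others.

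Of the members, 8240 (67.4%) were promoter members, which overlap the stretch that starts 1000 bp before and ends 100 bp after the 5′ end of a protein-coding gene. Only the outermost annotated 5′ end of each gene was used, so promoters at other starts of a gene were not considered. A further 2627 (21.5%) lay within a protein-coding gene and 1357 (11.1%) outside such genes, which is called between genes here. Among the members away from these promoters, 26.6% overlapped the promoter of another gene type. Together the members held the promoters of 9713 of 19103 autosomal protein-coding genes (50.8%), and 1382 of them covered the promoters of 2 or more genes. The median member was 1435 bp long (10th to 90th percentile 755 to 2353 bp) and had 94 CpGs (44 to 176), or 6.85 CpGs per 100 bp, with a GC content of 61.6%. Promoter members were longest, with a median of 1533 bp, against 1255 bp within genes and 1073 bp between genes. At the limits of the rule, the longest member (at NBR1) had a mean mC of 0.743% in the clones at Knockdown and the shortest piece above the limit (AP3D1, 3500 bp) had 0.850%. The shortest member (301 bp, 30 CpGs, on chromosome 19) had 0.614%, and the member with the fewest CpGs (FLNC, 10 CpGs) had 9.98%.

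Members were covered by 9.67 to 11.4 reads per CpG in the libraries of Cl.3 and Cl.6, 19.1 to 23.4 in those of Cl.9 and 12.4 to 19.3 in the bulk populations. The Wilson 95% confidence interval of the members' summed mC reached no more than 0.0111 points to each side, but a single member had a median of only 9 to 11 methylated reads at Knockdown. Reads were counted at each CpG and neighbouring CpGs share reads, so intervals and limits cover counting error only and are too narrow. The Baseline library of Cl.6 stood apart. Its CpGs on mitochondrial DNA, which serve as a check because this DNA is largely unmethylated, read as methylated in 2.50% of reads, against 0.257% to 0.500% in the other 14 libraries. The part of this background in the members' Baseline level of Cl.6 was not tested, and values are therefore given with and without Cl.6 or after subtraction of the mitochondrial level where it moves them.

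Methylation of the members was low at every stage (mC, the share of reads at their CpGs that were methylated). In Cl.3 it was 2.28%, 1.09% and 1.31% at Baseline, Knockdown and Recovery. In Cl.6 the 3 values were 4.39%, 0.987% and 1.18%, and in Cl.9 they were 2.19%, 0.706% and 0.929%. The bulk populations had 1.66%, 0.669% and 1.58% (R1) and 1.68%, 0.627% and 1.56% (R2). Every Knockdown library thus lay below all 5 Baseline libraries, and the Recovery libraries of the bulk populations returned close to their own Baseline while those of the clones stayed near Knockdown. The mitochondrial level made up part of these values, and after its subtraction 0.371% to 0.632% was left at Knockdown.

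**Figure D1:**
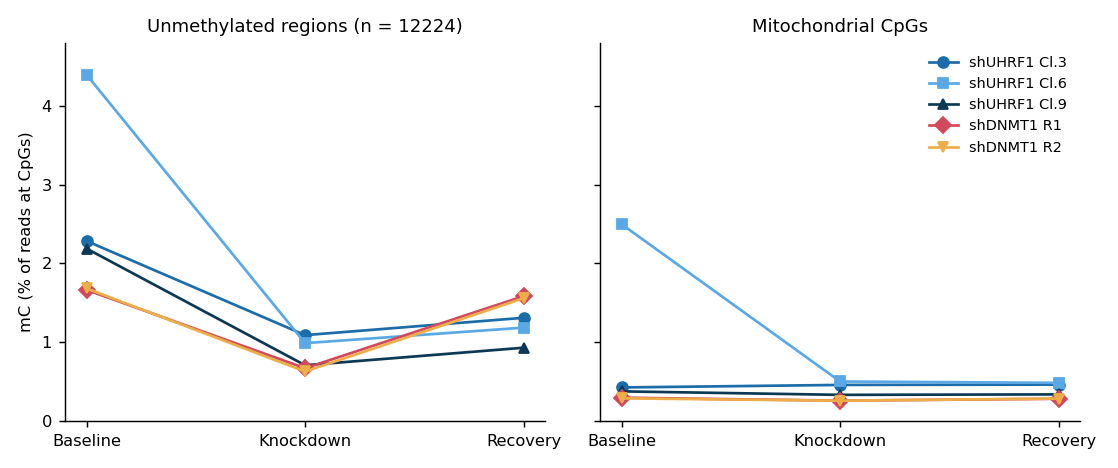
Methylation (y axis, % of reads at CpGs) of the 12224 members (left) and of mitochondrial CpGs (right) at each stage (x axis), with 1 line per population and no error bars because each point is 1 library. Members lie at 1.66% to 4.39% at Baseline and at 0.627% to 1.09% at Knockdown, and the Cl.6 Baseline library is the high point in both panels.

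Because the Baseline libraries chose the members, Knockdown was compared with Baseline on regions chosen again for each population from the Baseline lists of the other 4 populations only (12246 to 12449 regions). In these regions mC was lower at Knockdown in 3 of 3 clones, with differences of -3.71 to -1.47 percentage points (mean -2.33 ± 1.21, SD, n = 3, exact two-sided sign-flip test, p = 0.25), and in both bulk populations, at -1.08 and -1.03 points (mean -1.05 ± 0.0370, n = 2, p = 0.5). At Recovery it was still lower than Baseline, at -3.47 to -1.20 points in the clones (mean -2.08 ± 1.23, p = 0.25) and at -0.133 and -0.0900 points in the bulk populations (mean -0.112 ± 0.0304, p = 0.5), with the same exact test. These are the smallest p-values that 3 and 2 populations allow, so no such test can pass 0.05. Without Cl.6 the mean difference in the clones was -1.64 points at Knockdown and -1.38 points at Recovery, and with the mitochondrial level subtracted it was -1.66 and -1.40 points over all 3. The labels do not say whether R1 and R2 came from separate transductions, so the spread between them may be technical.

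As a description only, since the Baseline level in the denominator chose the members, each clone kept 47.7% (Cl.3), 22.5% (Cl.6) and 32.3% (Cl.9) of the members' methylation at Knockdown, and the bulk populations kept 40.2% and 37.3%. After subtraction of the mitochondrial level these shares were 34.0%, 25.7%, 20.7%, 30.1% and 26.6%. Windows of 1 kb with 50 or more CpGs that overlapped no UMR piece were set apart by the same Baseline calls. They had 85.1% to 89.3% at Baseline. Of that level they kept 69.5% to 88.3% in the clones and 55.0% to 56.1% in the bulk populations, also a description only. In edgeR's quasi-likelihood test with Benjamini-Hochberg adjustment over 42023 regions and windows, 11515 of 12208 testable members were called lower at Knockdown than Baseline in the clones and 7740 in the bulk populations. Everything tested means the shared UMR pieces of any length, inside or outside PMDs, and the windows of 1 kb. Over everything tested the share called lower was 96.4% and 87.5%, and the shares called higher were 0.0761% and 0.0452%. Since the rule used the Baseline libraries, nothing is read from these counts.

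At Knockdown the order of the populations among the members was Cl.3 (1.09%), Cl.6 (0.987%), Cl.9 (0.706%), R1 (0.669%) and R2 (0.627%). It was also the order of autosomal methylation as a whole, at 62.6%, 57.4%, 42.9%, 40.4% and 39.5%. The clones had a mean of 0.927% and the bulk populations of 0.648%, a difference of 0.279 points (exact two-sided permutation of the 5 populations, p = 0.2, the smallest possible). After subtraction of the mitochondrial level the difference was 0.107 points (p = 0.4 by the same exact test). The part of the background in this difference was not tested.

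Members were next set beside longer unmethylated pieces and beside pieces inside PMDs. The 304 shared pieces of 3500 bp or more outside PMDs had a mean mC of 0.837% at Knockdown against 0.816% for members, with members lower in 5 of 5 populations at -0.0372 to -0.00786 points (exact sign-flip test, p = 0.0625, the smallest possible with 5). Weighting each piece equally gave a difference of -0.273 points. At Baseline members had the higher level in Cl.6 (4.39% against 4.25%) and R2 (1.68% against 1.64%) and the lower level in Cl.3, Cl.9 and R1. The same regions were measured in every population, so the test says nothing of other regions. Median CpG density was 6.85 CpGs per 100 bp in members and 5.42 in the longer pieces, and its part was not tested. The 3111 shared UMR pieces that lay inside PMDs of all 5 lists had 11.1% at Knockdown, with a mean difference of members less these pieces of -10.3 ± 2.86 points (SD, n = 5). They already had 19.7% to 24.4% at Baseline, against 1.66% to 4.39% in members, so the choice on Baseline calls brought in a gap of this direction and no test is given. CpG density also differed, at a median of 0.602 CpGs per 100 bp inside PMDs, and its part was not tested.

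Methylation per CpG was highest near the ends of the members. At Baseline the CpGs within 25 bp of an end had an mC of 16.5% to 21.1%, and CpGs further in had less, down to 0.517% to 0.855% at 800 bp or more from the ends in all libraries but Cl.6, where it was 3.13%. Since the ends were set by the Baseline calls, this is a description. In the Knockdown libraries of the same cells CpGs within 25 bp of an end had 7.91% in Cl.3, 6.32% in Cl.6, 4.40% in Cl.9, 4.78% in R1 and 4.52% in R2. CpGs at 800 bp or more from the ends had 0.597%, 0.606%, 0.409%, 0.328% and 0.315%, beside mitochondrial levels of 0.457%, 0.500%, 0.331%, 0.257% and 0.257% in the same libraries. The outermost CpGs (within 1/6 of the length of an end) had a mean of 1.80% at Knockdown over the 5 populations and the innermost CpGs (the central 1/3) 0.457%. At Baseline they already had 4.85% to 7.78% and 0.522% to 3.14%, because the calls in these cells placed the ends where methylation begins, so the direction at Knockdown is a description and no test of it is given.

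The ends also showed the 2 courses of Recovery. In the bulk populations mC within 25 bp of an end was 15.1% and 15.3% at Recovery, close to the 16.5% and 16.6% of Baseline. In the clones it was 9.64%, 7.98% and 5.96% at Recovery, against 20.4%, 21.1% and 20.5% at Baseline. As a description only, since the Baseline calls that set the ends enter these shares, regained levels of the outermost CpGs were also taken. They regained 15.4%, 9.61% and 12.5% of the level they had lost in the 3 clones, in the order given, but 90% and 90.2% in the bulk populations. With the mitochondrial level subtracted the value of Cl.6 was 15.2%, beside 15.1% in Cl.3. The innermost CpGs of the bulk populations went from 0.336% and 0.322% at Knockdown to 0.516% and 0.505% at Recovery, with 0.522% and 0.553% at Baseline. Just outside the members, the first 100 bp had 58.9%, 58.2% and 56.6% at Baseline in the clones, 33.5%, 29.0% and 21.2% at Knockdown and 38.1%, 34.1% and 25.8% at Recovery. The same flank in the bulk populations had 50.5% and 50.2%, then 16.3% and 15.8%, then 46.7% and 46.9%. The flanks thus followed the same course as the ends, and a step between inside and outside was present at every stage.

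**Figure D2:**
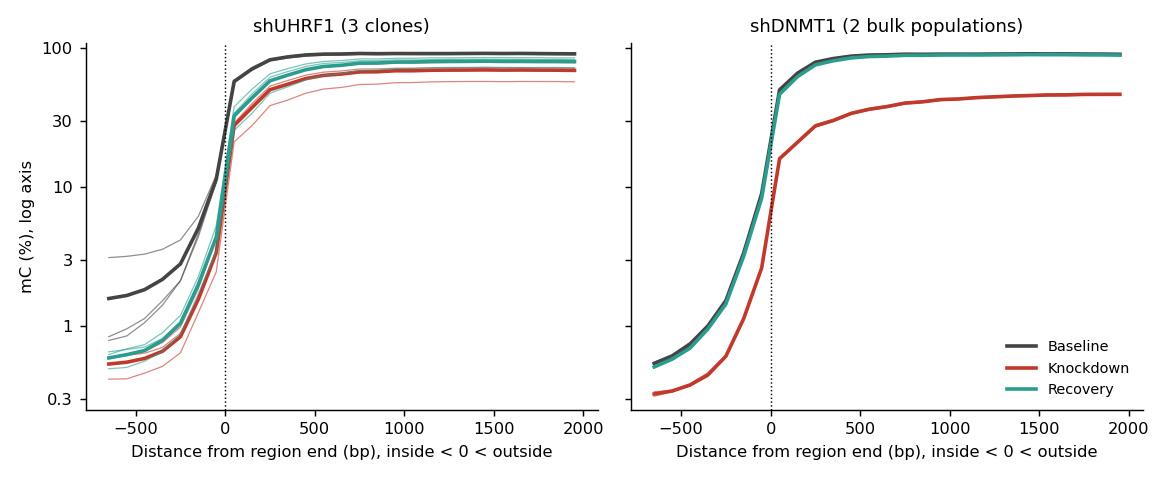
Methylation (y axis, %, log axis) in bins of 100 bp against the distance from the nearest end of a member (x axis, bp, negative inside), by stage, with thin lines for populations and thick lines for their mean. In the bulk populations the Recovery line lies near the Baseline line (8.34% against 9.0% in the first 100 bp inside the end in R1), whereas in the clones it lies near the Knockdown line (5.29% against 4.26% in Cl.3).

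Single CpGs gave the same picture of sparse methylation. Among member CpGs with at least 5 reads, 90.8% to 92.0% had no methylated read at Knockdown, and 1.34%, 1.03% and 0.579% (Cl.3, Cl.6, Cl.9) and 0.313% and 0.277% (R1, R2) were methylated in 20% or more of reads. At Recovery the latter shares were 1.66%, 1.23% and 0.777% in the clones, against 1.91% and 1.97% in the bulk populations. Shares of this kind move with depth, which was highest in Cl.9. Of 759521 member CpGs with at least 5 reads in all 15 libraries, 15 were methylated in 50% or more of reads in all 15, and these lay in 15 different members. A sequence variant was not tested for at these positions.

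The UMR calls that held the members were longer at Knockdown than at Baseline in all 5 populations. The median UMR around a member's midpoint measured 1577 to 1633 bp at Baseline. At Knockdown it was 1945 bp (Cl.3), 2044 bp (Cl.6), 2665 bp (Cl.9), 4261 bp (R1) and 4535.5 bp (R2). At Recovery it was 1833, 1881 and 2178 bp in the clones and 1668 and 1665 bp in the bulk populations, so the bulk populations were back near their Baseline length and the clones stood between Baseline and Knockdown. Calls were made separately in each library, with no test here. Of the 12224 members, 12032 to 12221 were wholly UMR at Knockdown and 11906 to 12177 at Recovery. In Cl.9 at Knockdown 356 members lay wholly inside a PMD call, against 9 to 52 in the other Knockdown libraries.

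**Figure D3:**
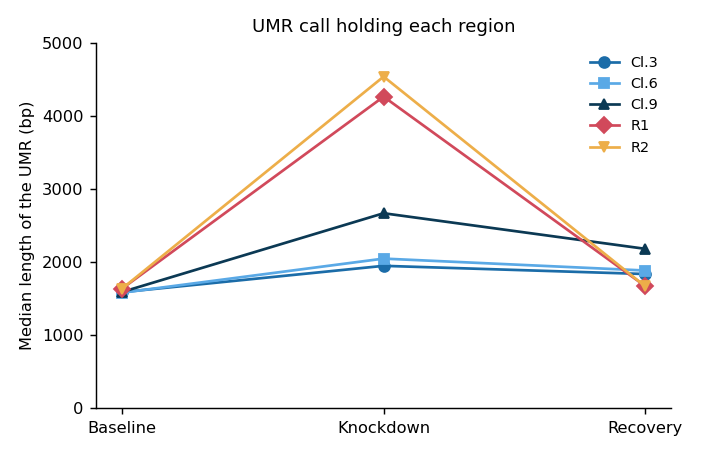
Median length (y axis, bp) of the UMR call that holds the midpoint of each member, by stage (x axis), with 1 line per population. All populations lie between 1577 and 1633 bp at Baseline, and R1 and R2 reach 4261 and 4535.5 bp at Knockdown before returning to 1668 and 1665 bp.

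Promoter members were the least methylated. At Knockdown promoter members had 1.00%, 0.930%, 0.635%, 0.616% and 0.574% in Cl.3, Cl.6, Cl.9, R1 and R2, members within genes had 1.22%, 1.10%, 0.823%, 0.777% and 0.731%, and those between genes had 1.64%, 1.30%, 1.16%, 0.951% and 0.921%. The order was the same in every population. Promoter members were lower than all other members in 5 of 5 populations, at -0.337 to -0.210 points (mean -0.253 ± 0.0556, exact sign-flip test, p = 0.0625). At Baseline promoter members already had 2.12%, 4.27%, 1.98%, 1.53% and 1.55% in the same populations. All other members had 2.76%, 4.74%, 2.81%, 2.07% and 2.07%. The gap thus preceded Knockdown, and the test says nothing of a change. The order also held for the innermost CpGs alone, which at Knockdown had 0.289% to 0.563% in promoter members, 0.383% to 0.674% within genes and 0.538% to 1.00% between genes. Promoter members are longer, so a smaller share of their CpGs lies near an end, and the part of length in their lower level was not tested. In the shortest members (300 to under 800 bp) mC at Knockdown was 1.84%, 1.53%, 1.38%, 1.08% and 1.02%, and in the 1679 longest it was 0.946%, 0.879%, 0.602%, 0.582% and 0.545%. By CpG density only the sparsest members stood out. Those with under 4 CpGs per 100 bp had 0.957% to 1.64% at Knockdown, and the 4 denser classes had 0.590% to 1.08%.

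**Figure D4:**
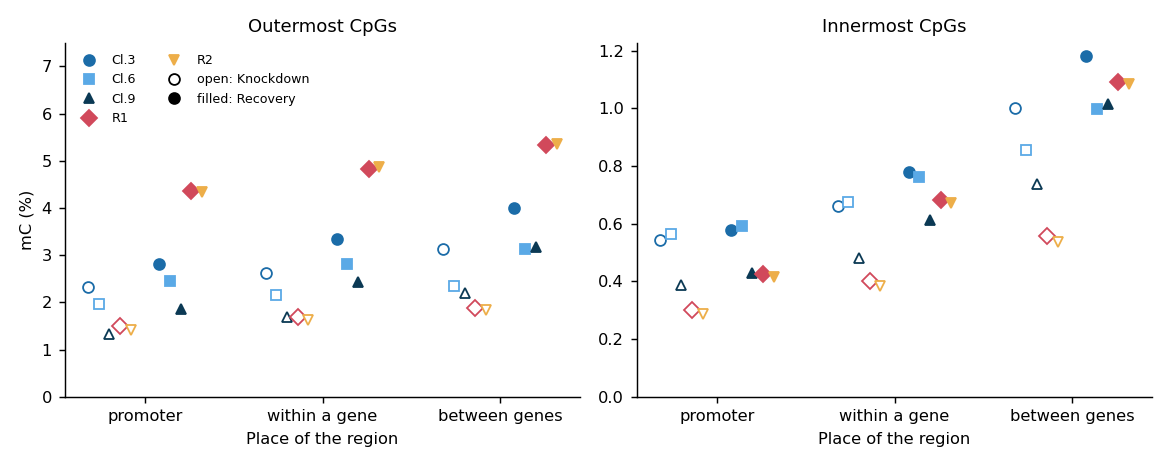
Methylation (y axis, %) of the outermost CpGs (left) and the innermost CpGs (right) of promoter members, members within genes and members between genes (x axis), with 1 point per library, open for Knockdown and filled for Recovery. In both panels and at both stages promoter members are lowest in each population, from 0.289% (R2, innermost CpGs, Knockdown) upward.

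Recovery was then compared with Knockdown, 2 stages that had no part in the choice of the members. Summed over all members, mC was higher at Recovery in 3 of 3 clones, by 0.197 to 0.223 points (mean 0.213 ± 0.0143, exact sign-flip test, p = 0.25), and in both bulk populations, by 0.914 and 0.930 points (mean 0.922 ± 0.0109, p = 0.5 by the same exact test). The clones regained 18.4% (Cl.3), 5.78% (Cl.6) and 15.0% (Cl.9) of the level they had lost, and the bulk populations 92.0% and 88.2%. The Baseline level that chose the members enters these shares, so they are a description only. With the mitochondrial level subtracted, Cl.6 had regained 15.2%. With the same limit, members between genes regained 25.2%, 10.0% and 21.6% in the clones and promoter members 16.5%, 4.98% and 13.1%. After the same subtraction the values of Cl.6 were 23.2% between genes and 13.6% at promoters.

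Member by member, edgeR's quasi-likelihood test (all 15 libraries in 1 fit, the population as a block, at least 50 reads in every library, Benjamini-Hochberg adjusted p under 0.05) was applied to 12208 members. In the bulk populations 6851 members (56.1%) were higher and 4 lower at Recovery than at Knockdown. Without R1 2965 were higher, without R2 2553, and without the block 3299. Over all regions and windows tested, 85.2% were higher and 0.0452% lower. Whether a member was called also depends on its few methylated reads, so these shares were not compared further. In the clones 100 members (0.819%) were higher and 4 lower, against 8.42% and 0.0262% of everything tested. The calls in the clones depended on the fit: edgeR called no member in either direction without the population as a block (275 with an unadjusted p under 0.05, against 978 with it) or without Cl.9 (597, with a median log2 change of 0.25 against 0.31), and 33 were called without Cl.6, 55 without R1 and 57 without R2. Limma called none (1414 with an unadjusted p under 0.05). Of the 100, 76 were also higher in the bulk populations, which is 76.0% of the clones' calls and 1.11% of the bulk calls.

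The fit gives log2 changes of the odds of methylation (methylated over unmethylated reads). Their median over members was 0.31 in the clones and 1.23 in the bulk populations, beside 0.35 and 1.54 over all features tested. It was positive for 75.8% and 96.8% of members. The difference between the shRNAs was itself tested in the same fit. It was called for 2046 members, 2034 with a smaller rise in the clones (16.7%) and 12 with a larger one, against 59.9% and 0.0643% of all features tested. The count was 144 without the population as a block, 578 without R1 and 456 without R2. The share of members higher in the clones was 0.413% at promoters (34 calls), 1.49% within genes (39) and 2.00% between genes (27), against 8.42% of everything tested. These calls depended on the fit as given above, so nothing is read from their order. The corresponding bulk shares were 55.0%, 58.8% and 58.0%, against 85.2% of everything tested.

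Among promoter members called higher in the clones, the 6 with the largest mean rise and the same sign in all 3 were at GRB14, ZYG11B, STON2, CDC25B, DPP4 and SPATA4. GRB14, an adaptor that dampens insulin receptor signalling, had 11.3%, 11.4% and 13.2% at Baseline, Knockdown and Recovery in Cl.3, 7.91%, 4.77% and 16.7% in Cl.6, and 5.87%, 1.92% and 10.1% in Cl.9. Its Recovery level was above Baseline in every clone and also in R1 (6.14%, 4.86% and 7.80%) and R2 (4.52%, 4.22% and 9.97%). The log2 change at GRB14 (chr2:164620748-164621867) was 1.5 in the clones and 1.04 in the bulk populations (edgeR adjusted p = 0.00245 and 0.00985). The rise in the clones came mostly from Cl.6 and Cl.9, with Cl.3 nearly flat.

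ZYG11B, a substrate receptor of a cullin ubiquitin ligase, was lower at Knockdown than at both other stages in all 5 populations. It had 13.9%, 4.22% and 11.2% in Cl.3, 14.0%, 3.82% and 6.53% in Cl.6, 9.50%, 3.25% and 5.29% in Cl.9, 17.8%, 2.52% and 12.4% in R1, and 8.71%, 2.97% and 12.8% in R2. The rise was 3.90 points on average in the clones and 9.85 in the bulk populations, and the difference passed the test (log2 difference -1.31, edgeR adjusted p = 0.0214). STON2, which encodes an endocytic adaptor, had 1.94%, 4.86% and 1.21% at Knockdown in the clones and 5.73%, 8.65% and 2.32% at Recovery. Its Recovery values in R1 and R2 were 6.10% and 5.91%, above their Baseline of 5.04% and 4.65%. The remaining 3 were the region shared by CDC25B, a cell cycle phosphatase, and CENPB, a centromere protein, that at DPP4, a cell surface peptidase, and that at SPATA4. CDC25B went from 1.26%, 1.36% and 0.866% to 2.70%, 7.29% and 1.54% in the clones, so most of its mean rise came from Cl.6.

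In the bulk populations the 6 largest such rises at promoters were at FAF2, PDK4, CCL27, ARC, ZYG11B and RPRML, by 9.67 to 16.8 points. FAF2, a factor of protein degradation at the endoplasmic reticulum, had 14.9%, 8.62% and 23.2% in R1 and 22.1%, 9.12% and 28.1% in R2. In the clones the level of FAF2 at Knockdown was not below Baseline, with 13.5%, 17.4% and 17.2% in Cl.3, 25.5%, 26.6% and 25.5% in Cl.6 and 15.8%, 27.4% and 26% in Cl.9, and the difference between the shRNAs passed the test (log2 difference -1.89, edgeR adjusted p = 0.00153). PDK4, a kinase that shuts off pyruvate dehydrogenase, varied between populations of the same shRNA. It had 7.42% and 25.1% at Knockdown and Recovery in R1, 4.43% and 8.70% in R2, 13.6% and 29.4% in Cl.9, 12.7% and 13.7% in Cl.6 and 22.4% and 10.8% in Cl.3, and its difference between the shRNAs passed the test (log2 difference -1.46, edgeR adjusted p = 0.014). RPRML had 2.82% and 9.29% in R1 and 2.16% and 15.0% in R2, while Cl.3, Cl.6 and Cl.9 went from 7.47%, 9.50% and 4.49% to 8.59%, 8.54% and 7.30% (log2 difference -2.14, edgeR adjusted p = 0.000247).

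GXYLT1, a xylosyltransferase that acts on Notch, was the 1 promoter member called lower in the bulk populations. It went from 2.26% and 0.435% to 0.167% and 0.118% (log2 change -3.03, edgeR adjusted p = 0.000681). In the clones it rose from 1.27%, 0.168% and 0.351% to 2.92%, 1.90% and 0.910% (log2 change 1.66, edgeR adjusted p = 0.0349). The difference passed the test (log2 difference 4.69, edgeR adjusted p = 6.15e-05), although the highest of the 10 values was 2.92%. The other 3 members called lower in the bulk populations lay within METTL15, within TLK2 and between genes on chromosome 21, and the 4 called lower in the clones lay within RBMS1, within IL17D and between genes on chromosomes 1 and 8. At IL17D only Cl.9 moved by much, from 8.57% to 2.19%, while Cl.3 went from 0.353% to 0.203% and Cl.6 from 0.347% to 0.436%. These were named after their values were seen. The chromosome 1 region (chr1:16534674-16535773) went from 27.3%, 17.5% and 10.8% at Knockdown to 8.70%, 0.575% and 0.610% at Recovery in the clones, while R1 and R2 went from 7.85% and 7.92% to 23.6% and 9.42%. It was thinly covered, with 96 reads over 85 CpGs in the library with the fewest, so its values rest on few reads. The RBMS1 region (chr2:160407536-160408156) had 0.712%, 7.72% and 0.351% in Cl.3, 4.13%, 14.6% and 11.4% in Cl.6 and 1.28%, 12.1% and 3.30% in Cl.9, and in R1 and R2 it went from 3.72% and 8.17% at Baseline to 14.3% and 11.9% at Recovery. Its lowest count in a library was 213 reads over 103 CpGs.

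**Figure D5:**
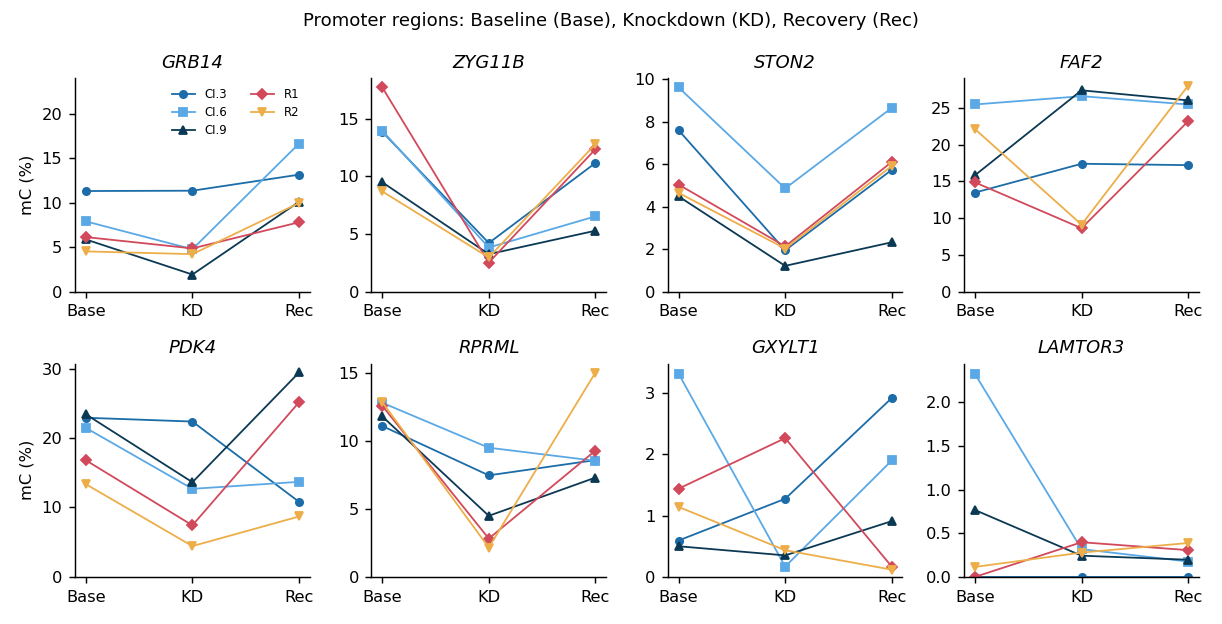
Methylation (y axis, %) of 8 promoter members at Baseline, Knockdown and Recovery (x axis), with 1 line per population and a separate scale in each panel. ZYG11B and STON2 are lowest at Knockdown in all 5 populations, and FAF2 reaches its lowest values of 8.62% and 9.12% in R1 and R2 at Knockdown. GXYLT1 and LAMTOR3 reach at most 3.32% and 2.33%, both in the Cl.6 Baseline library, which had a mitochondrial level of 2.50%. In the other libraries they reach at most 2.92% and 0.767%.

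Some members had a high mean level after Baseline, though few were high in every library. Over the 10 Knockdown and Recovery libraries the promoter members with the highest mean included those at FAF2, NCOA7, PDK4, ZNF586 and GADL1. NCOA7, a nuclear receptor coactivator, had 25.1%, 24.7% and 17.7% at Knockdown in the clones, against 14.1% and 14.0% in the bulk populations, and it was the only promoter member above 10% in all 5 Knockdown libraries. In all, 6 members with at least 50 reads exceeded 10% in all 5 and 119 in at least 1 of them. GADL1, a decarboxylase whose window is printed above, had 14.2%, 17.5% and 12.6% at Knockdown in the clones but 2.75% and 4.35% in the bulk populations. Of the largest rises among promoter members in each population, that of Cl.6 was at GRB14, those of Cl.9 and R1 at PDK4 and that of R2 at FAF2. In Cl.3 the largest among promoter members was at ITPKB, an inositol trisphosphate kinase, from 12.9% to 22.3%, where Cl.6 had 0.491% and 0.448%.

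Away from promoters, the 4 members with the highest mean were regions of 326 to 607 bp within MAGI1, within CYP4V2 and between genes on chromosomes 18 and 19. The CYP4V2 region (chr4:186204168-186204493) was at 4.00%, 26.6% and 22.7% at Knockdown in the clones and at 40.9%, 42.6% and 29.0% at Recovery, with 19.9% and 18.9%, then 36.8% in both, in the bulk populations. The chromosome 18 region (chr18:12068430-12068974), whose window is printed above, had 38.3%, 16.5% and 17.4% at Knockdown in the clones, against 10.3% and 18.4% in the bulk populations. Its Recovery values in R1 and R2 were 21.3% and 52.5%, so the 2 bulk populations were far apart.

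At the other extreme were the promoters of LAMTOR3, a subunit of the complex that recruits mTORC1 to lysosomes, EEF2KMT, which methylates elongation factor 2, DDX11, a DNA helicase, and ZNF175. LAMTOR3 had no methylated read in Cl.3 at any stage, which allows up to 0.685%, 0.901% and 0.709% at Baseline, Knockdown and Recovery. Its values in the other Knockdown and Recovery libraries were 0.176% to 0.397%. EEF2KMT reached at most 0.558%, DDX11 0.383% and ZNF175 0.691% in the Knockdown and Recovery libraries, levels of the order of the mitochondrial background, and differences among these 4 are not detectable at this depth.

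Lists of genes with basic cell functions were set beside lists of developmental and tissue genes, as a description. Members held the promoters of 28 of 31 proteasome subunits, 17 of 20 cytosolic tRNA synthetases, 24 of 27 DNA replication factors, 16 of 20 DNA repair genes and 9 of 12 RNA polymerase II subunits. They held 4 of 30 developmental transcription factors, 6 of 27 genes often silenced in colorectal cancer and 1 of 20 liver secreted protein genes, beside 50.8% of all protein-coding genes. Of 10 DNA methylation machinery genes with a member, DNMT3A, DNMT3B, TET1, TET3, UHRF2, MBD2, MBD4, TDG, HELLS and DNMT1 (in a region shared with S1PR2), none passed the test in the clones, and HELLS, UHRF2 and DNMT3B were higher at Recovery in the bulk populations. The shares called higher were 0.819% of all members and 8.42% of everything tested in the clones, against 56.1% and 85.2% in the bulk populations.

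DNMT3B was highest at Knockdown of the 10 when reads of all 5 populations were summed, at 1.39%, 0.601% and 1.42% in the clones, against 1.06% and 0.638% in the bulk populations at Knockdown, and at 1.55%, 0.733%, 3.08%, 1.80% and 1.88% at Recovery (edgeR adjusted p = 0.0357 in the bulk populations). HELLS, a chromatin remodeller needed for methylation, went from 1.17% and 0.571% to 1.76% and 2.73% in the bulk populations (edgeR adjusted p = 0.00898). UHRF2, the paralog of UHRF1, went from 0.0787% and 0.112% to 0.390% and 0.477% (edgeR adjusted p = 0.00565), and its 3 clones stayed at 0.149% to 0.634% over both stages. UHRF2 differed between the shRNAs (edgeR adjusted p = 0.0159). Its Knockdown values in R1 and R2 lay below the mitochondrial level of 0.257% in both libraries. At Recovery that level was 0.281% and 0.284%, so the UHRF2 values are of the order of the background. The region shared by S1PR2 and DNMT1 had no methylated read of 297 in Cl.3 at Knockdown, which allows up to 1.01%. It had 0.328% to 1.85% in the other Knockdown libraries. This region was assigned to DNMT1 by the outermost annotated 5′ end of that gene, and other starts of DNMT1 were not considered. The promoters of UHRF1, TET2 and USP7, taken at the outermost annotated 5′ end only, were not held by a member.

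At Recovery 16 of 28 proteasome members were higher in the bulk populations, 9 of 17 tRNA synthetase members, 10 of 24 replication members, 7 of 9 RNA polymerase II members, 8 of 16 DNA repair members, 3 of 4 developmental members, 4 of 6 members at cancer-silenced genes and the 1 liver member, CYP2E1. None of these members was called lower in either shRNA and none was called higher in the clones. The median log2 change in the bulk populations was 1.25, 1.15, 1.06, 1.44, 1.06, 1.34, 1.28 and 1.84 in the same order, beside 1.23 over all members. The shares called higher in the bulk populations were 56.1% over all members and 85.2% over everything tested, and nothing particular to the lists is read from their counts.

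In the DNA repair list XPA, of excision repair, was lowest, at 0.159% to 0.476% at Knockdown. The highest and lowest of the other lists were PSMC3, PSMB3 and PSMB6 (proteasome), LARS1, EPRS1 and FARSA (leucine, glutamate and proline, and phenylalanine tRNA synthetases), MCM2, LIG1 and MCM3 (replication) and POLR2K, POLR2D and POLR2H (RNA polymerase II), all at 0.0952% to 2.54% at Knockdown. PSMB3 differed between the shRNAs, since R1 and R2 went from 0.507% and 0.555% to 1.85% and 1.53% while the clones went from 1.32%, 1.26% and 0.884% to 0.934%, 0.682% and 0.891% (edgeR adjusted p = 0.00454). The developmental factor NEUROG2 was highest of all list members, and 1 clone set it apart, with 9.75% at Knockdown in Cl.9 against 2.59%, 2.19%, 1.43% and 0.969% in the other populations. SIX2 and GATA6 were the next and the lowest of that list, and SEPTIN9 and CDKN2A were the highest and the next of the cancer-silenced list.

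Promoter sequences were compared between genes with and without a member. The rule asked for at least 10 CpGs and for UMR calls, so CpG content was part of the choice. The 300-base promoters (250 bases before to 50 after the gene's start) of RefSeq (GRCh38.p14) matched 7763 of the 9713 genes by symbol and had a median of 28 CpGs and 66.3% GC. The 6853 autosomal promoters of the table not held by a member had a median of 9 CpGs and 57.7% GC. The GC box of SP1 and KLF factors (GGGCGG, searched on both strands as all motifs here) was present in 75.0% of held promoters, against 42.2% of those not held and 59.6% of all 14616 promoters. The ETS motif (CCGGAAG) was present in 21.8%, 6.27% and 14.5%, and the CCAAT box of NFY (CCAAT) in 37.2%, 35.2% and 36.3%. Lower shares were found for the E-box (CACGTG, 10.6%, 6.64% and 8.76%), YY1 (AAGATGGCG, 4.56%, 0.934% and 2.86%), the core of NRF1 (GCGCATGCG, 4.30%, 1.04% and 2.77%), CREB (TGACGTCA, 3.7%, 1.56% and 2.70%) and the core of BANP (TCTCGCGAG, 1.56%, 0.540% and 1.08%).

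All but the CCAAT box contain a CpG, so CpG-rich promoters hold them more often by composition. Among promoters with 20 or more CpGs, the GC box was in 82.9% of the 6134 held and 83.0% of the 2255 not held. The ETS motif was in 23.2% against 12.1%, YY1 in 4.52% against 2.22% and NRF1 in 4.87% against 2.44%. The E-box (11.3% against 10.1%), CREB (4.06% against 3.06%) and BANP (1.76% against 1.37%) were closer together, and the CCAAT box was in 35.4% against 29.0%. These are matches of letters in a fixed window and were not tested.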

How the data were processed

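Genomic DNA of 15 HCT116 libraries was profiled by whole-genome bisulfite sequencing, in which methylated cytosines are read as C and others as T. Per the study's methods, reads were aligned with the Meth10X pipeline (hg38), and PMDs, LMRs and UMRs were called per library with MethylSeekR and completed with bedtools 2.25.0. The authors deposited counts of methylated and of all reads at 29456478 CpG positions in 3 tables, not normalized, and 1 domain list per library. The treatment of duplicate reads and variants was not stated, and lambda spike-in reads were not analysed here.

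Members were rebuilt from the 5 Baseline lists, annotated with GENCODE release 44, and their mC was the sum of methylated over the sum of all reads. The members, gene lists, motifs and tests were chosen with earlier results of these data known. Of 11 comparisons of summed mC, those between stages or between kinds of region used exact two-sided sign-flip permutation over populations and that between the shRNAs an exact permutation of population labels, with BH-adjusted p from 0.172 to 0.5. Those of outermost with innermost CpGs and of pieces outside with inside PMDs are given without a test, because the choice of members fixes their direction, but count among the 11. Features were members, long pieces, 3111 pieces inside PMDs of all 5 lists, 14927 inside PMDs of 1 to 4 lists and 15186 windows of 1 kb (45752 in all). The 42023 with 50 or more reads in every library were tested with edgeR 4.0.16 (quasi-likelihood, methylated and unmethylated counts, population as block). Limma was applied to log2 ratios (pseudocount 1). A check on simulated data came first, and its outcome is not given here. Stages of a population were treated as paired because they come from the same clone or bulk culture. Deviations of members from the group mean correlated at 0.495 to 0.757 between stages of a clone and at -0.0114 to 0.00941 in the bulk populations. R1 and R2 were kept as 2 samples as labelled. Their chi-square per degree of freedom over members was 1.55 to 1.76, but since neighbouring CpGs share reads this does not show that they are separate cultures.

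Named promoter members were the 6 with the largest mean change in each direction called and of 1 sign in every population, the 6 highest and 4 lowest in mean mC over the 10 later libraries (100 or more reads in each), the 4 highest elsewhere, the largest rise in each population, every member at a methylation machinery gene, the 2 highest and the lowest of each other list, and those at the limits of the rule. A few members that this rule names are not reported here.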

Additional observations from a re-analysis of the deposited data

Results flagged for a closer look

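The change from Knockdown to Recovery differed between shUHRF1 and shDNMT1 at 2046 members by the interaction term of the edgeR fit (BH-adjusted p under 0.05), and 2034 of these (16.7% of the members tested) rose less in the clones. Over everything tested 59.9% did so, and the count was 144 without the population as a block, 578 without R1 and 456 without R2. Since only clones carried shUHRF1 and only bulk cultures carried shDNMT1, this difference cannot be assigned to the shRNA, and its cause was not tested. No group held 4 or more libraries, so single libraries were not compared by a gap test.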

How the results depend on the processing

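None of the recomputed values changed direction, and 16 counts of members called moved by over 1.5 times. Of the differences in mC, members less long pieces went from -0.0212 to -0.273 points with equal weight per piece and to -0.140 without 100 bp at each end, and shUHRF1 less shDNMT1 at Knockdown went from 0.279 to 0.107 points after subtraction of the mitochondrial level. Without 100 bp at each end the bulk populations had -0.626 points for Knockdown less Baseline, -0.0644 for Recovery less Baseline and 0.549 for Recovery less Knockdown, and the clones 0.141 for the last. Promoter less other members was -0.408 with equal weight, and members less long pieces -0.0409 over CpGs with 5 or more reads. Without the pairing of stages within a population (no replicate block), edgeR called 0 members in the clones for Recovery against Knockdown (275 with an unadjusted p under 0.05), 3301 in the bulk populations, 144 for the difference between the shRNAs and 4232 for Knockdown against Baseline in the bulk populations, against 104, 6855, 2046 and 7744 with it, and the exact tests gave p from 0.1 to 0.333. Limma called 0 members in the clones (1414 with an unadjusted p under 0.05). Leaving out 1 population at a time gave 0 (without Cl.9) to 112 members in the clones, 2561 to 7453 in the bulk populations, 456 to 1911 for the difference, 8728 to 11626 for Knockdown against Baseline in the clones and 2978 to 8245 in the bulk populations. The low ends for the bulk populations and the difference came without R2 (without R1 they were 2977, 3827 and 578), where the single population left is assumed to vary like the others. Without the Cl.6 Baseline library, an alternative chosen after seeing the data like the subtraction of the mitochondrial level, 232 members were called in the clones. The causes of these moves were not tested. Fits that left out a population or the Cl.6 Baseline library held fewer libraries. Limma and the fit without the block left out no library. Depth limits single members, which had few methylated reads at Knockdown.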
